A study of Mus musculus with 4 samples.

Results

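Type IB spiral ganglion neurons were the 1625 cells that the authors' deposited cell annotation labels type IB, out of 6713 annotated cells of the mouse cochlea. They were taken by that label alone, with no clustering and no threshold on expression. The cells came from 4 male wild-type CBA/CaJ mice (an inbred strain) at 9 weeks of age, from 8 cochlear capsules in all. The tissue of each mouse, mainly the modiolus with the ganglion and some adjoining sensory epithelium, was dissociated and captured on its own. One 10x Genomics v2 library per mouse gave 3′ counts of unique molecular identifiers (UMIs, tags that mark single captured molecules). There was 1 group of animals and no treatment, so the mouse is the replicate and the comparisons are between populations of the same animals. The annotation also holds 2384 type IA and 2104 type IC cells.

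Spiral ganglion neurons are the afferent neurons of hearing and link hair cells with the cochlear nucleus. Type I neurons are bipolar and myelinated and contact inner hair cells, and they differ from one another in threshold and spontaneous firing rate. Their molecular subtypes are usually told apart by the calcium-binding proteins calretinin and calbindin and by transcription factors such as Pou4f1 and Runx1. Calretinin (Calb2) is the usual mark of type IA, Lypd1 and Pou4f1 of type IC, and calbindin (Calb1) of type IB. The sources used here do not say how the annotation was assigned, and it describes the same cells whose UMIs are counted. Genes that separate the populations are therefore given as descriptions, with the size and an approximate standard error (SE) of each difference and no p-value.

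Type IB cells numbered 318 in mouse 1, 523 in mouse 2, 421 in mouse 3 and 363 in mouse 4. Their share of the annotated cells was 25.7% in mouse 1 (exact 95% binomial interval 23.3 to 28.2), 23.4% in mouse 2 (21.7 to 25.2), 24.5% in mouse 3 (22.5 to 26.6) and 23.8% in mouse 4 (21.7 to 26.1). The intervals of the 4 mice overlap, and the mean share was 24.4% ± 0.985 (SD, n = 4). Median depth per type IB cell was 18258, 13225, 15447 and 11233 UMIs in mice 1 to 4, and the cells held 21631826 UMIs in all. A median of 8.95% ± 0.519 of a cell's UMIs were mitochondrial, between type IA (10.3% ± 0.758) and type IC (7.15% ± 0.287). 15 type IB cells carried a barcode sequence that also occurs in another library.

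All 4 markers set for the population stood higher in type IB than in types IA and IC in 4 of 4 mice. They were chosen with earlier results of these data known, so their height is a description and no check of the label. Levels are in CPM, a gene's UMIs scaled to a common total for each population of a mouse, a scale on which 1 molecule gives 1 tag whatever the length of the gene. Calb1 (chr4:15881264-15908064, plus strand, GRCm38) encodes calbindin, a calcium buffer. It stood at 59.3, 72.5, 68.1 and 66.6 CPM in the type IB cells of mice 1 to 4. Every one of these was above the type IA range of 3.62 to 6.53 CPM and the type IC range of 7.13 to 11.5 CPM. The log2 difference was 3.58 ± 0.10 (SE) from type IA and 2.89 ± 0.09 from type IC.

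Ttn (chr2:76703980-76982547, minus strand) encodes titin, the giant elastic protein of the muscle sarcomere. Its type IB levels were 72.9, 61.3, 78.6 and 86.4 CPM. The mean was 3.85 ± 1.27 CPM in type IA and 5.10 ± 1.18 CPM in type IC (SD, n = 4). The populations did not overlap, and these log2 differences were 4.26 ± 0.11 and 3.86 ± 0.10. Lrrc52 (chr1:167445669-167466780, minus strand) encodes a leucine-rich repeat protein that serves as an auxiliary subunit of large-conductance potassium channels. It was scarcer, at 14.9, 12.5, 11.1 and 12.01 CPM in mice 1 to 4, and types IA (2.32 ± 0.784) and IC (2.33 ± 1.02) stood below every one of these.

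Kcnd2 (chr6:21215503-21729805, plus strand) encodes Kv4.2, the pore of an A-type potassium channel that inactivates quickly. Type IB levels were 12.8, 13.1, 15.3 and 18.8 CPM. Kcnd2 set type IB apart from type IA (0.625 to 0.754 CPM, log2 difference 4.33 ± 0.21) more than from type IC. In type IC it reached 6.71 to 10.8 CPM, which left a log2 difference of 0.82 ± 0.12. The lowest type IB mouse was still above the highest type IC mouse.

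**Figure D1:**
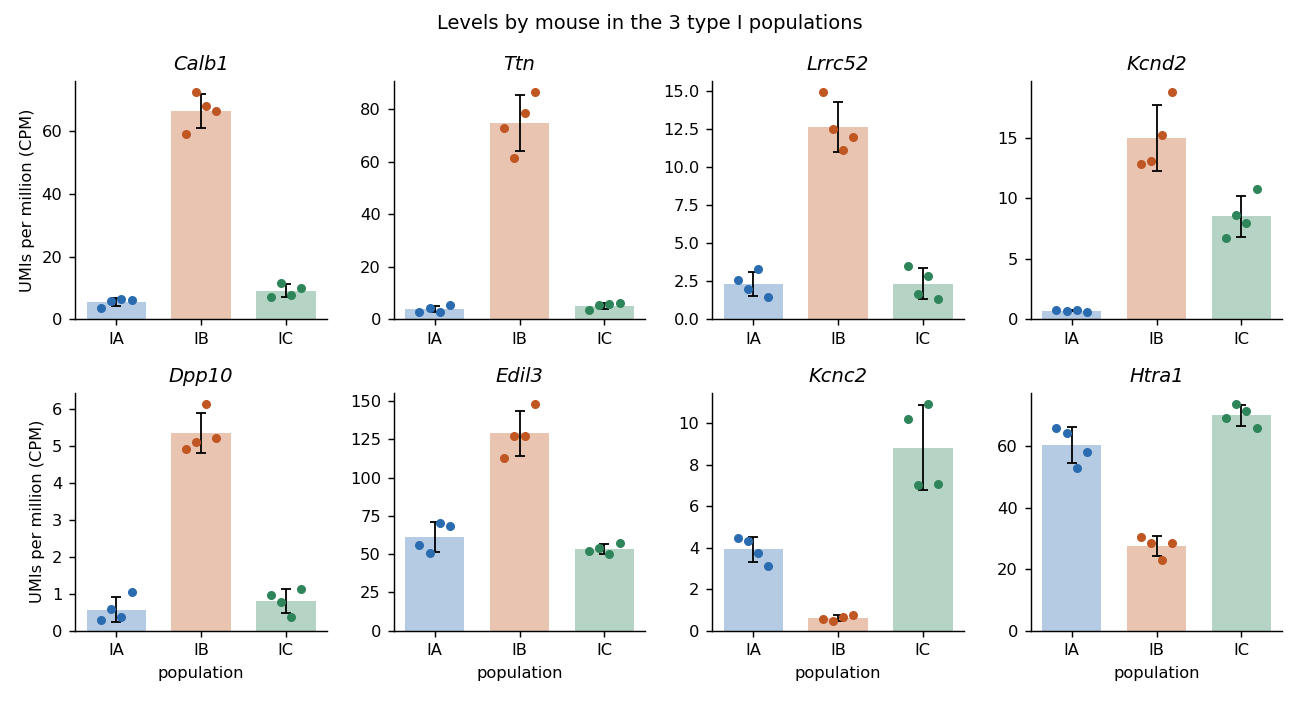
Levels (CPM, linear axes from 0) of the 4 type IB markers, of Dpp10 and Edil3, and of Kcnc2 and Htra1, in types IA, IB and IC. Points are the 4 mice, bars their mean and whiskers 1 SD. For each of these 8 genes the 4 type IB mice lie all above, or for Kcnc2 and Htra1 all below, the mice of the other populations.

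A single type IB cell often held none of the 4 marker transcripts. Before any correction for depth, 76.1% of type IB cells per mouse held at least 1 UMI of any marker, and 23.9% ± 3.59 held none. 1 marker was seen in 39.2% ± 2.44 of cells, 2 in 26.7% ± 4.48, 3 in 9.02% ± 1.45 and all 4 in 1.30% ± 1.04. To compare populations at 1 depth, each cell was thinned at random to 4000 UMIs, which left out 85 of the type IB cells, 183 of type IA and 116 of type IC. At this depth 42.1%, 44.7%, 45.8% and 49.8% of the type IB cells of mice 1 to 4 held a marker UMI, with type IA at 4.82% ± 0.431 and type IC at 9.31% ± 1.39. The type IA and IC shares are the background at the same depth, and every type IB mouse was above them.

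Calb1 and Ttn carried most of this detection. At 4000 UMIs, Calb1 was seen in 21.8% ± 1.45 of type IB cells, with type IA at 2.21% ± 0.527 and type IC at 3.19% ± 1.02. Ttn was seen in 24.3% ± 3.91 of type IB cells, against 1.23% ± 0.0639 and 1.84% ± 0.486. Lrrc52 reached 4.47% ± 0.933 of type IB cells, above 1.15% ± 0.420 in type IA and 0.961% ± 0.785 in type IC. Kcnd2 reached 5.34% ± 0.560, above type IA (0.256% ± 0.213), but its lowest type IB mouse (4.67%) was below the highest type IC mouse (5.0%, mean 3.72% ± 0.886). With no thinning, Calb1 had a UMI in 42.5%, 46.7%, 48.2% and 39.1% of the cells of mice 1 to 4 and Ttn in 52.5%, 39.8%, 56.5% and 51.0%. No type IB cell held more than 10 UMIs of either gene.

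**Figure D2:**
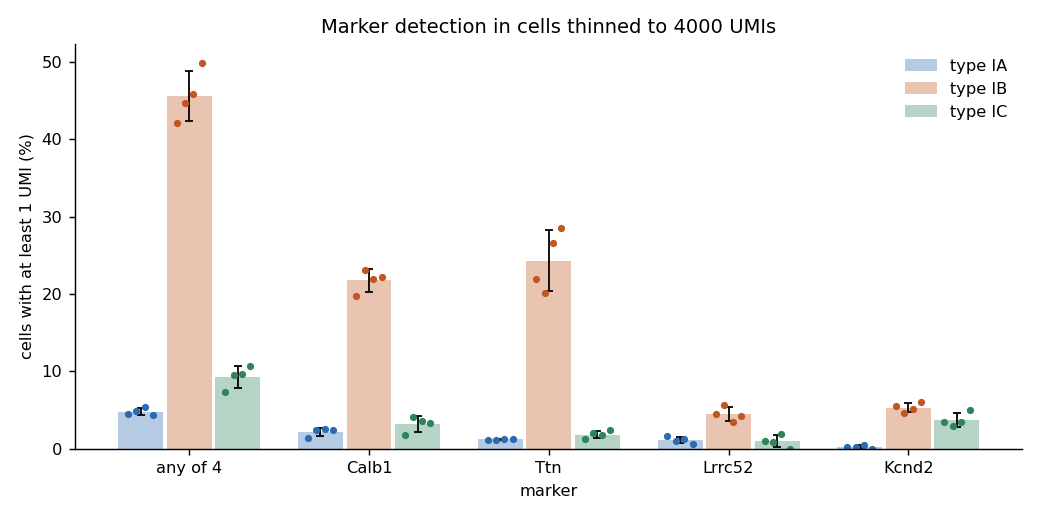
Share of cells (%, axis from 0) with at least 1 UMI of any of the 4 markers and of each marker, in cells thinned to 4000 UMIs. Points are the 4 mice, bars their mean and whiskers 1 SD, and type IB stands between 42.1% and 49.8% for any marker.

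Markers were only weakly related to one another from cell to cell. Over pairs of markers the mean of the 4 within-mouse correlations across cells (Pearson r of depth-scaled log counts) lay between 0.0012 for Calb1 with Kcnd2 and 0.10 for Ttn with Kcnd2. These counts are sparse, the cells of a mouse share a library, and nothing is read from correlations this weak. The genes most like Ttn across type IB cells were the mitochondrially encoded mt-Co1 (mean r 0.33, 0.22 to 0.39 over mice), mt-Nd4 (0.31) and mt-Co3 (0.30). Ttn relative to depth also ran with a cell's mitochondrial share (r 0.37, 0.42, 0.19 and 0.27 in mice 1 to 4) and against its depth (-0.18, -0.24, -0.16 and -0.12), and the part of these in one another was not tested. The genes most like Calb1 were Calm2 (calmodulin, r 0.17), Pfn2 (0.15) and Gnas (0.14), those most like Lrrc52 were Cd24a (0.15), Mdh1 (0.14) and Mgst3 (0.12), and those most like Kcnd2 included Pdp1 (0.12) and Sema3e (0.11).

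Across the whole transcriptome, 17514 of 18143 genes had at least 1 UMI in a type IB cell. Genes found in at least 90% of type IB cells in all 4 mice numbered 484, of which 83 were mitochondrially encoded or ribosomal protein genes, and 8553 were found in at least 10%. The 100 most abundant genes took 28.9% ± 0.258 of the UMIs. Outside mitochondrial and ribosomal protein genes the highest levels were those of the nuclear RNA Malat1 (18089 ± 1572 CPM), the ferritin heavy chain gene Fth1 (9212 ± 438), the osteopontin gene Spp1 (5505 ± 382) and Calm2 (4735 ± 63.3). Next were Snap25, which encodes a SNARE protein of vesicle fusion (4656 ± 134), the respiratory chain gene Ndufa4 (3977 ± 91.5), the calcium buffer gene Pvalb (3474 ± 202) and the ubiquitin gene Ubb (3396 ± 123). The remainder of the highest 15 ran from 3323 down to 2649 CPM and held Cox4i1, Cox6c, Meg3, Cox5a, Ldhb, Cox8a and Stmn3.

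Type IB was compared with each other type I population by edgeR's quasi-likelihood test on UMIs summed per mouse and population, with the mouse as a block. A gene is said to be called where its adjusted p was under 0.05 among 12672 genes. Against type IA 2864 genes were called (22.6%), 1494 of them higher (11.8%) and 1370 lower (10.8%) in type IB. Against type IC 2341 genes were called (18.5%), 1196 higher (9.44%) and 1145 lower (9.04%). Genes called higher than both populations numbered 223 (1.76%), of which 208 had that direction in 4 of 4 mice and 16 were at least 2-fold above each. Those called lower than both numbered 114 (0.900%), 99 of them in 4 of 4 mice and 5 at least 2-fold below each. Without the mouse as a block 88 genes were higher and 36 lower than both, and by DESeq2's Wald test 118 and 50, and without mouse 1 75 were lower than both. The markers of the population are among the genes called, and the annotation uses the same cells, so the counts describe the labelled populations.

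**Figure D3:**
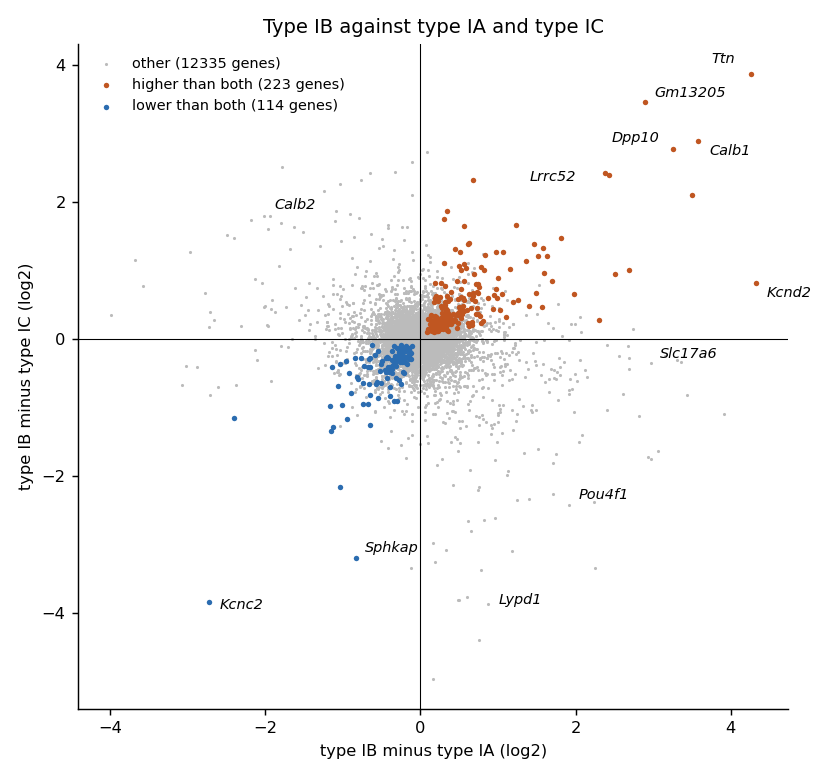
Log2 difference of type IB from type IA (horizontal) and from type IC (vertical) for the 12672 genes tested, 1 point per gene. Orange points are the 223 genes called higher than both and blue points the 114 called lower than both. Calb2 lies upper left (-2.02 from type IA, 1.79 from type IC) and Lypd1 and Pou4f1 lower right.

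Several of the genes highest in type IB relative to both populations encode potassium channel proteins. Dpp10, an auxiliary subunit of Kv4 channels, stood at 4.91, 5.10, 6.13 and 5.22 CPM in type IB of mice 1 to 4, where type IA stood at 0.575 ± 0.336 and type IC at 0.813 ± 0.324. No type IA or IC mouse exceeded 1.12 CPM, and the log2 differences were 3.26 ± 0.31 and 2.76 ± 0.28. Kcnk10, the leak channel TREK-2, stood at 3.78, 3.86, 3.81 and 3.92 CPM, above every mouse of type IA (0.985 to 1.46) and of type IC (1.12 to 2.11). Levels this low rest on few molecules: 116 UMIs of Dpp10 and 83 of Kcnk10 over all type IB cells.

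Other genes called higher than both had various known roles. Adora1, the adenosine A1 receptor, was higher than type IA by 1.52 ± 0.24 and than type IC by 1.20 ± 0.23 on the log2 scale. Its mice varied, at 9.06, 3.09, 4.64 and 5.74 CPM, and the range met that of type IC (up to 3.54). Lypd6, a member of the Ly6 family whose relatives modulate nicotinic receptors, stood at 17.7, 17.3, 23.2 and 23.8 CPM, and it was closer to type IC (0.94 ± 0.12) than to type IA (2.51 ± 0.15). Rasd2, a Ras-like GTPase, showed the same pattern (2.69 ± 0.30 and 1.00 ± 0.23). Mrvi1, a substrate of cGMP-dependent kinase bound to the IP3 receptor, was higher by 1.46 ± 0.34 and 1.39 ± 0.34. The type IC call was lost for Mrvi1 by DESeq2 (1.42) and for Adora1 without the block (1.20).

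Edil3 was more abundant in type IB than any other gene named so far as higher than both, Ttn and Calb1 included. It encodes a secreted integrin-binding protein, and its levels were 113, 127, 127 and 148 CPM, while type IA ranged from 50.6 to 70.6 and type IC from 49.8 to 57.2. The log2 differences were 1.06 ± 0.05 and 1.27 ± 0.06. The others were Slc2a9, a urate transporter (1.16 ± 0.29 and 1.02 ± 0.29), Mybpc2, a myosin-binding protein of fast muscle (0.97 ± 0.30 and 1.26 ± 0.31), Spats2l (1.36 ± 0.24 and 1.13 ± 0.23) and Tmem196 (1.00 ± 0.27 and 0.89 ± 0.26). Slc2a9, Mybpc2 and Tmem196 each lost a call by DESeq2 and without the block. Leaving out 1 mouse also ended calls: mouse 1 for Slc2a9 (0.84 from type IC) and Tmem196 (0.77 from type IC), mouse 2 for Mybpc2 (0.80 from type IA and 0.93 from type IC) and mouse 4 for Tmem196 (0.77 and 0.69). All of the genes in this and the preceding paragraph had fewer than 120 UMIs in type IB apart from Edil3 (2754), Ttn (1588), Calb1 (1449) and Lypd6 (437).

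4 gene models without a proper name were also among the genes highest in type IB. Gm13205 (49.8 ± 4.73 CPM in type IB, 6.67 ± 1.81 in type IA, 4.43 ± 1.64 in type IC) had log2 differences of 2.90 ± 0.10 and 3.45 ± 0.11, close to those of Calb1. GENCODE release M21 places it on the minus strand of chromosome 4, antisense to the zinc finger transcription factor gene Casz1. Casz1 itself was called higher than both, at 45.6 ± 5.41 CPM with type IA at 36.3 and type IC at 13.4 (0.31 ± 0.07 and 1.75 ± 0.08). The sources used here do not say whether counting used strand, so reads of Gm13205 and Casz1 cannot be told apart with certainty. The remaining models were E530001K10Rik (3.50 ± 0.34 and 2.10 ± 0.27), the lincRNA 2310039L15Rik (2.43 ± 0.30 and 2.39 ± 0.30) and Gm15543 (1.81 ± 0.24 and 1.48 ± 0.23), which lies antisense to Casc1.

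Among genes lower than both, Kcnc2 had the largest differences. It encodes Kv3.2, a channel of fast-spiking neurons, and stood at 0.566, 0.464, 0.663 and 0.783 CPM in type IB, against 3.12 to 4.49 in type IA and 7.04 to 10.9 in type IC (-2.73 ± 0.33 and -3.84 ± 0.27). Only 13 Kcnc2 UMIs were counted in all type IB cells. Its relative Kcnc1 was abundant in type IB (420 ± 14.5 CPM), and differed from type IA by 0.08 ± 0.04, which was not called, and from type IC by 0.29 ± 0.04.

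Htra1, a secreted serine protease, stood at 30.6, 28.6, 23.0 and 28.5 CPM, below every mouse of type IA (53.0 to 65.8) and of type IC (65.8 to 73.8) (-1.15 ± 0.07 and -1.35 ± 0.07). Sphkap, an anchor of protein kinase A, was lower by -0.83 ± 0.10 from type IA and by -3.19 ± 0.07 from type IC, where it reached 148 ± 25.2 CPM. Slc15a5, of a family of peptide transporters, was lower by -2.40 ± 0.16 and -1.15 ± 0.19. Ebf1, a transcription factor of neuronal differentiation, stood at 112, 113, 89.2 and 114 CPM against 170 ± 23.2 and 208 ± 15.5 (-0.68 ± 0.04 and -0.95 ± 0.04). Dpp6, like Dpp10 an auxiliary subunit of Kv4 channels, was lower by -0.67 ± 0.09 and -0.66 ± 0.09, opposite in direction to Dpp10. Further genes were Tmem132e, Neto2 (an auxiliary protein of kainate receptors), Zfp51, Ppp1r27, Poli, Defb42, Nrp1 and Slc2a13, with differences between -0.65 and -1.28. Neighbouring ranges touched for Zfp51, Ppp1r27, Defb42, Nrp1 and Slc2a13. Zfp51, Neto2, Poli and Slc2a13 lost the type IA call by DESeq2, and without the block Zfp51 and Slc2a13 lost it and Zfp51, Ppp1r27 and Defb42 lost the type IC call. The type IA call also ended without mouse 1 for Zfp51 (-0.69) and Poli (-0.58), without mouse 2 for Zfp51 (-0.97), Poli (-0.71) and Slc2a13 (-0.53), and without mouse 4 for Neto2 (-0.88). Zfp51 lost the type IC call without mouse 1 (-0.57), without mouse 2 and by DESeq2 (-0.96).

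Over all genes tested, 1.76% were called higher than both populations and 0.900% lower, and the counts of the gene lists that follow are to be read against these shares. The lists were chosen with earlier results of these data known, and some hold a marker of the population (Kcnd2, Lrrc52, Calb1 or Ttn). Their counts are therefore descriptions, and no excess over all genes is read from them. Only 31 named genes were followed through the other fits, so other list calls carry no such check. Voltage-gated potassium channel genes divided in both directions. Of 26 tested, 5 were called higher than both populations (Kcnd2, Dpp10, Kcnq3, Kcns1 and Kcns3) and 3 lower (Kcnc2, Dpp6 and Kcnh7), against 1.76% and 0.900% of all genes, with list medians of 0.12 from type IA and -0.12 from type IC beside medians of 0.0008 and -0.0022 over all genes. Kcnq3, a subunit of the M channel, differed by 0.27 ± 0.08 and 0.81 ± 0.09, and the modulatory subunit gene Kcns3 by 0.50 ± 0.08 and 1.06 ± 0.08. The Kv4-binding Kcnip2 lay between the other populations (42.2 ± 10.97 CPM, 18.4 in type IA and 64.4 in type IC). Of 17 other potassium channel genes, Lrrc52, Kcnk10 and the small-conductance channel gene Kcnn1 (1.03 ± 0.13 and 0.41 ± 0.12) were called higher and Lrrc55 lower (-0.31 ± 0.05 and -0.13 ± 0.05).

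No sodium, HCN or calcium channel gene was called on the same side of both populations, of 13 and 20 tested, which is near the share over all genes (1.76% higher and 0.900% lower). Scn8a, the main sodium channel of nodes of Ranvier, stood at 226 ± 7.18 CPM and was not called against either (-0.04 ± 0.04 and -0.06 ± 0.04). Hcn2, a pacemaker channel, was called against type IC only (0.42 ± 0.04, and 0.08 ± 0.04 from type IA).

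Genes of transmitter storage and vesicle release that were called on the same side of both were all higher in type IB, 5 of 42 against 0 lower (1.76% and 0.900% over all genes), with list medians of 0.09 and 0.02. Among them were Slc6a17, a vesicular amino acid transporter (0.31 ± 0.04 and 0.50 ± 0.04), Sv2c (0.66 ± 0.04 and 0.25 ± 0.04), Sv2b (0.19 ± 0.05 and 0.13 ± 0.05) and Snap25 (0.16 ± 0.03 and 0.21 ± 0.03). These are small differences in abundant transcripts, and whether each call holds in the other fits was not followed. Slc17a7 and Slc17a6, both glutamate transporter genes of vesicles, lay between the other populations. Slc17a7 stood at 433 CPM in type IB. Slc17a6 stood at 156, 146, 170 and 169 CPM in type IB, 19.8 ± 1.10 in type IA and 207 ± 19.7 in type IC.

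Among receptor genes, 0 of 10 glutamate receptor genes were called on the same side of both, near the 1.76% and 0.900% of all genes. The AMPA receptor genes Gria2 (134 ± 22.5 CPM), Gria3 (119 ± 4.32) and Gria4 (66.0 ± 2.69) differed from type IA by 0.11, -0.09 and -0.04 (SE 0.05 to 0.06), and only Gria3 was called, against type IC (0.23 ± 0.05). Of 11 GABA, glycine and acetylcholine receptor genes, Glrb (0.21 ± 0.04 and 0.12 ± 0.04), the glycine receptor beta subunit, and Lypd6 were higher than both. Of 13 monoamine, peptide and purine receptor genes, Htr2c, the serotonin 2C receptor, was higher than both (13.0, 14.7, 18.6 and 14.9 CPM, 0.57 ± 0.12 and 1.09 ± 0.13) along with Adora1.

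Axon guidance genes called on the same side numbered 4 higher and 1 lower of 45, where 1.76% and 0.900% of all genes were called. The adhesion and transcription factor counts in this paragraph are read against the same shares, and that of transcription factors is near them. The secreted semaphorin gene Sema3e stood at 226, 201, 259 and 275 CPM, where type IA stood at 140 ± 29.1 and type IC at 118 ± 16.6 (0.78 ± 0.04 and 1.04 ± 0.04). Sema3d (0.53 ± 0.08 and 1.00 ± 0.08), the ephrin gene Efnb2 (0.19 ± 0.05 and 0.82 ± 0.05) and the netrin receptor gene Unc5c (0.73 ± 0.15 and 0.44 ± 0.15) were also higher. Nrp1, a receptor for semaphorins, was lower (-0.66 ± 0.11 and -1.26 ± 0.10). Of 43 adhesion genes, Cntnap2, Cadm1 and Lsamp were higher (0.13 to 0.29) and Nrcam and Cntn5 lower (-0.27 to -0.65). Of 54 transcription factor genes, Casz1 was higher and Eya1 lower (-0.23 ± 0.05 and -0.49 ± 0.05). Of the 44 that differed between types IA and IC, 32 had type IB between. Over all genes tested 3933 of 4941 did (79.6%), so this count is not particular to transcription factors.

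Ttn and Mybpc2 were the only ones of 20 sarcomere protein genes called higher than both, and none was lower, where 1.76% and 0.900% of all genes were called. Mybpc2 lost its type IA call by DESeq2 (1.01), without the block (0.98) and without mouse 2 (0.80). Neb, which encodes nebulin, did not follow Ttn and stood at 40.9 CPM in type IB, 69.5 in type IA and 11.95 in type IC. Rbm20, a regulator of titin splicing named here after its values were seen, stood at 17.4, 16.1, 18.1 and 16.2 CPM in type IB against 9.67 ± 1.34 and 7.30 ± 2.01 (0.83 ± 0.12 and 1.23 ± 0.13). Of 23 calcium-binding protein genes, 2 were higher than both, Calb1 and S100a10 (0.39 ± 0.04 and 0.22 ± 0.04), and 1 was lower. Of 40 genes of the axonal cytoskeleton and node of Ranvier, Stmn2 and Basp1 were higher and Tuba4a, Sptan1 and Nrcam lower, and these counts and those of calcium-binding and dissociation genes stand beside the same 1.76% and 0.900%. The dissociation-responsive and immediate early genes gave 1 call of 32 on the same side, Sgk1 (0.13 ± 0.04 and 0.35 ± 0.05), and a median share of a cell's UMIs of 0.662% ± 0.0266 in type IB, 0.630% ± 0.0416 in type IA and 0.696% ± 0.0221 in type IC.

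On most genes that differ between types IA and IC, type IB lay between them. Of 4941 genes called between types IA and IC (39.0% of those tested), the fitted type IB level was between the others for 3933 (79.6%). Of 501 with at least a 2-fold difference, 442 (88.2%) had type IB between, and on a log2 scale from 0 at type IA to 1 at type IC its median position was 0.573 (middle 50% from 0.366 to 0.789). Single genes spread widely along this range. The type IA marker gene B3gat1, which makes the HNK-1 epitope, stood at 30.5 CPM in type IB, 242 in type IA and 12.7 in type IC, near the type IC end. Runx1, a transcription factor, stood at 81.3 CPM in type IB and 86.7 in type IC against 12.3 in type IA, and was not called against type IC (-0.10).

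Fitted type IB levels of all 8 type IA and all 8 type IC markers lay between the other populations, some of them close to type IC. These are levels of the population, not of single cells. Across type IB cells thinned to 4000 UMIs the sums of the 2 sets ran weakly against each other (mean r -0.19). The same r was -0.20 in type IA and -0.23 in type IC. All 8 type IA markers were lower than in type IA, 5 of them called higher than in type IC, and all 8 type IC markers were higher than in type IA, 7 of them called lower than in type IC. Calb2 stood at 2777, 2226, 2624 and 2206 CPM in type IB, against 9866 ± 844 and 719 ± 116. In cells thinned to 4000 UMIs, a type IB cell held a mean of 10.0 ± 1.04 UMIs of the type IA markers, of which 0.286 ± 0.0431 were not Calb2, against 39.7 ± 2.71 in a type IA cell, of which 1.94 ± 0.144 were not Calb2. A type IC cell held 2.99 ± 0.481, of which 0.112 ± 0.0168 were not Calb2. All 13 mitochondrially encoded genes also lay between, as did 79.6% of all genes called between types IA and IC. Of the 13, 12 were called lower than in type IA (10.8% of all genes) and 13 higher than in type IC (9.44%). Their medians were -0.19 and 0.29.

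Markers of other cochlear cells were present at levels that varied widely from gene to gene, and their part in these differences was not tested. The 12 satellite glia and Schwann cell markers summed to 6291 to 6712 CPM in type IB, 5729 to 6200 in type IA and 6247 to 6389 in type IC. Of the 12, 3 were called higher than in type IA (11.8% of all genes) and 2 higher than in type IC (9.44% of all genes). None was called lower than in type IA (10.8% of all genes) or in type IC (9.04%). On the same side of both, 0 were called (1.76% and 0.900% of all genes). Fabp7, a defining satellite glia gene, stood at 15.3 CPM, and 0.693% ± 0.427 of type IB cells held 3 or more of its UMIs, against 39.6% ± 15.0 of type II cells. Of the 8 type II neuron markers, Prph (1.17 CPM) and Th (0.284) were near 0, while Ngfr (109) and Gata3 (36.5) were not. The 8 summed to 135 to 156 CPM in type IB and to 931 to 2217 in type II cells. Among the hair cell and supporting cell markers the sum of 3412 to 3847 CPM was mostly Pvalb, which the neurons express. Cib2 stood at 174 CPM, Gjb2 at 19.3 and Gjb6 at 14.8, while Otof stood at 0.883 and Myo7a at 0.0653 CPM. No marker on these lists had 0 UMIs in type IB.

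Within type IB, most genes varied little from cell to cell once counting noise and depth were set aside. The coefficient of variation (CV) between cells beyond counting noise had a median of 0.166 over the 3529 genes with a mean of at least 0.5 UMI per cell in every mouse. It exceeded 0.5 in 4 of 4 mice for 42 genes (1.19%), against 55 of 3129 in type IA (1.76%) and 55 of 3809 in type IC (1.44%). The populations differ in cell number, depth and genes tested, so these shares do not rank them. In single mice 90 (2.55%, mouse 1) to 169 (4.79%, mouse 4) of the 3529 genes exceeded 0.5 in type IB. The rank of genes by CV was shared only in part between mice, with Spearman's rho over genes from 0.25 to 0.29. Thinned to 4000 UMIs per cell, 16 of 1267 genes passed, and with a mean of at least 1 UMI 15 of 1878.

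Lypd1, a Ly6-family gene that marks type IC, varied most. Its CV was 1.72, 2.14, 1.96 and 1.91 in mice 1 to 4, against a median of 1.79 in type IA and 0.279 in type IC, where it was abundant. In 169 of 1625 type IB cells (10.4%) it had 5 or more UMIs, and these cells held 60.7% of its type IB UMIs. Counted without thinning, they were 13.8%, 11.7%, 10.9% and 4.96% of the cells of mice 1 to 4, while median depth was 18258, 13225, 15447 and 11233 UMIs, and the part of depth was not tested. The other genes of the highest 15 were Ceacam10 (median CV 1.43), Cyr61 (1.29), Lhx1os (1.23), Insig1 (1.05), Actb (1.02), Hist1h2bc (0.920), Calb1 (0.913), Cbx3 (0.908), Kdelr2 (0.899), Ttn (0.887), Sostdc1 (0.869), Lgr4 (0.841), Gadd45g (0.833) and Zscan26 (0.826). Calb1 and Ttn are the genes of this set that also mark the population. The 10% of cells with the most UMIs of the gene held 42.3% to 48.7% of the Calb1 UMIs of a mouse and 36.1% to 47.4% of the Ttn UMIs.

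**Figure D4:**
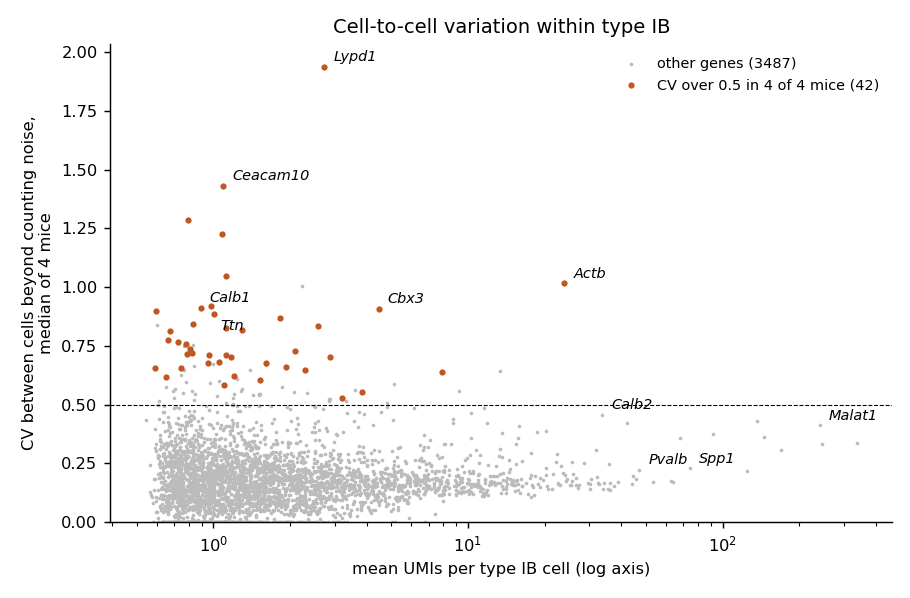
CV between type IB cells beyond counting noise (median of 4 mice) against mean UMIs per cell (log axis) for 3529 genes, 1 point per gene. Orange points are the 42 genes with a CV over 0.5 (dashed line) in 4 of 4 mice; Actb stands out among abundant genes at 1.02.

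The 42 genes held 2 sets that varied together across type IB cells, and the sets were chosen from these correlations. The first held Actb, the cytoskeletal beta-actin gene, and the 15 genes whose r with Actb was over 0.2 in every mouse: Cbx3, Micu3, Insig1, Nfia, Pdcd4, Gatad1, Kdelr2, Zscan26, Tmf1, Marf1, Lgr4, Lrig2, Lrrc8a, Ppm1h and Sfxn5. The r of Actb with Cbx3, a heterochromatin protein gene, was 0.79, 0.65, 0.65 and 0.70 in mice 1 to 4. The same pair gave a mean r of 0.70 in type IA and 0.73 in type IC, so the relation was not limited to type IB. Within this set the median r over pairs was 0.29, against 0.02 over all 861 pairs of the 42 genes. Its summed level ran against depth (r -0.37, -0.16, -0.17 and -0.27 over mice).

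Actb was spread with a long upper tail. In type IB cells thinned to 4000 UMIs the median was 4, 3, 4 and 6 Actb UMIs in mice 1 to 4, and the highest 10% of cells held at least 21, 18, 19 and 27. Cells with 10 or more Actb UMIs made up 32.0%, 17.7%, 23.2% and 32.7% of type IB, a mean of 26.4% ± 7.27, with 102 of 1540 cells close to this limit at 8 to 11 UMIs. The share in type IA was 25.3% ± 4.42 and in type IC 27.3% ± 4.29, within the spread of the type IB mice. For comparison the level of Snap25 in the same cells was even, with a median of 17 to 19 UMIs and the highest 10% from 25 or 26.

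The second set held Fxyd3, which encodes a regulator of the sodium pump, and the 8 genes whose r with it was over 0.1 in every mouse, among them Col9a3, Sostdc1, Sox2, Fos, Hey2, Id1 and Slc1a3. Several of them, such as Sox2 and Slc1a3, are known from glia or supporting cells. The r of Fxyd3 with Sox2 had a mean of 0.24 over mice, where type IA gave 0.22 and type IC 0.18, and the median within the set was 0.19. The summed level rose with depth (r 0.25, 0.35, 0.32 and 0.05) and ran against the mitochondrial share (-0.38, -0.40, -0.31 and -0.15), and the part of glial RNA in it was not tested. The median r between the sets was -0.0088 over 144 pairs.

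**Figure D5:**
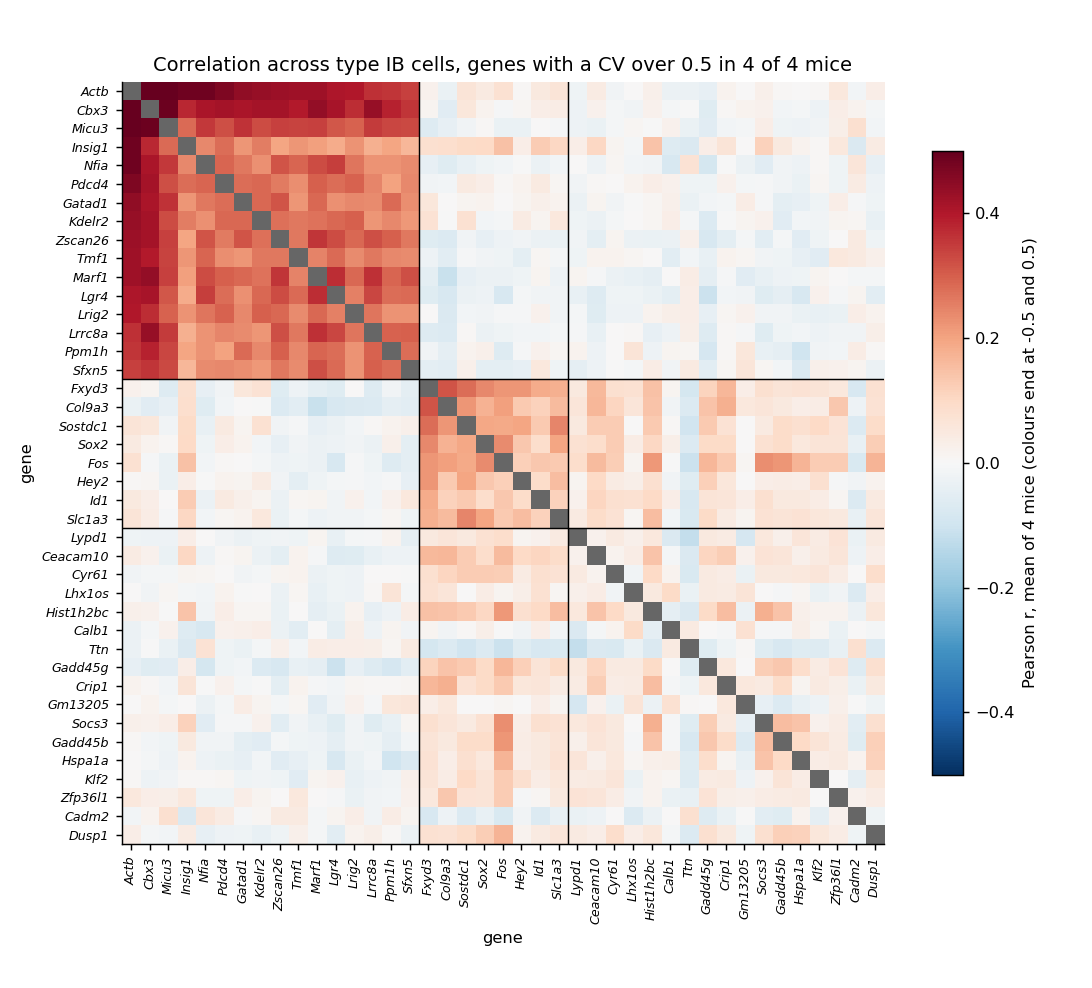
Pearson r across type IB cells (mean of 4 mice, depth-scaled log counts) for the genes of large variation that are reported here, with the Actb set first and the Fxyd3 set second, divided by lines. Colour runs from blue (-0.5) to red (0.5), the diagonal is grey, and r is highest for Actb with Cbx3 (0.70).

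The type IB sums of the 4 mice were alike for most genes. Over 10405 genes with at least 100 UMIs, the median biological coefficient of variation between mice was 0.0871, and it exceeded 0.5 for 15 genes. The 5 highest were Dct, a melanocyte enzyme, Bglap and Bglap2, which encode osteocalcin of bone, Dnase1, and the neutrophil gene Retnlg, all high in mouse 4 alone. Bglap stood at 1.51, 2.01, 0 and 90.6 CPM in mice 1 to 4. The airway gene Bpifa1 was at 116, 56.6, 0 and 120 CPM, and the interferon-induced Isg15 was high in mouse 1 (82.9 CPM, then 11.7, 9.12 and 10.7). The same mice stood high in the other populations: Bglap was at 115 CPM in type IA and 98.8 in type IC of mouse 4 and at most 1.79 in their other mice, and Isg15 at 66.4 and 66.3 CPM in mouse 1.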

How the data were processed

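Raw UMI counts per gene and cell, deposited by the authors as 1 table per mouse, were used with the authors' deposited cell annotation. The submitters' processing notes name Cell Ranger 2.0.1, Seurat 1.4 and the mm10 build. The sources used here do not state cell and gene filters. The authors' combined and normalized tables were not used, and 0 columns of per-sample values were passed over. No doublet caller was run, so doublets may be among the cells. The members and gene lists were chosen with earlier results of these data known.

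UMIs were summed per mouse and population (12 sums) and fitted with edgeR 4.0.16 in R 4.3.3 (TMM scaling, filterByExpr, quasi-likelihood test, Benjamini-Hochberg adjustment), with the mouse as a block because the populations of a mouse come from the same animal. Deviations of same-mouse sums correlated at 0.49 to 0.63. The SE of a log2 difference is its size divided by the square root of the test's F statistic, an approximation. For large differences with few UMIs, such as Kcnd2 from type IA or Kcnc2 from type IC, it can be smaller than counting error alone. Each group holds 4 mice, and type IB sums held 3830864 to 6471532 UMIs. DESeq2 1.42.0, a fit with no block, other scalings and filters, and leaving out each mouse were alternatives.

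The CV between cells was estimated per mouse from UMI counts less Poisson noise with depth as an offset (Python 3.11.15, numpy 2.4.6, scipy 1.17.1). Correlations used log2 counts scaled to 13334 UMIs per cell, plus 1. Thinning drew UMIs at random with a fixed seed. Both the fit and the CV were tested on simulated data. Binomial intervals cover counting error only. Gene positions are from GENCODE M21 (GRCm38).

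Named genes are the 4 markers; the 15 highest and 15 lowest genes called against both populations in 4 of 4 mice with at least 20 UMIs, ranked by the smaller difference, with predicted models skipped; up to 4 of the most abundant members of each list; the 15 most abundant, the 15 most variable and the 5 most uneven between mice; and 3 genes most like each marker. Predicted models, other list members and Rbm20, Isg15 and Bpifa1 were named after their values were seen. Some genes that meet these rules are not reported here.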

Additional observations from a re-analysis of the deposited data

Results flagged for a closer look

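Each of 66 values over the 4 type IB sums was examined for a mouse that stood apart. The gap between the lowest or highest mouse and its nearest neighbour was divided by the range (Dixon's ratio at its 95% critical value). This singled out 10 values, where chance gives about 1 in 20. Mouse 4 stood high for Dct (51.95 CPM), Bglap (90.58), Bglap2 (42.55), Dnase1 (27.93) and Retnlg (68.65). These genes had been picked for their spread between mice, so the chance share does not apply to them. Mouse 4 stood low for Ldhb (2576 CPM), Stmn3 (2344) and the summed hair cell and supporting cell markers (3412, most of it Pvalb). Mouse 1 stood low for Poli (1.51 CPM), and mouse 3 for Ebf1 (89.18).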

How the results depend on the processing

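Without the replicate block 88 genes were higher and 36 lower than both populations, with 1468 called against type IA and 992 against type IC and 84.6% of type IA and IC differences holding type IB between. All 88 and 36 were among the genes called with the pairing by mouse. DESeq2's Wald test gave 118, 50, 1706, 1269 and 84.5%. With type II and putative neurons in the fit, 66 were lower, 1540 were called against type IC and 81.7% lay between, and with equal cell numbers 81.1% did. Leaving out each mouse gave 160 to 214 higher, 75 to 99 lower (75 without mouse 1), 2192 to 2682 called against type IA, 1758 to 2003 against type IC, 78.8% to 80.2% between and 51 to 60 variable genes. Thinned cells gave 16 variable genes and a mean of at least 1 UMI 15. A marker UMI was seen in 64.4% of type IB cells at 8000 UMIs and 76.1% without thinning. At 4000 UMIs, 11.4% held at least 2 UMIs of the same marker. The type IB share was 26.7% of type I cells and 25.4% of cells with 4000 UMIs or more. Without cells whose barcode occurs in another library, chosen after seeing the data, 227 were higher and 118 lower. Of 734 differences of 31 named genes, 698 kept their call, 36 lost it and 0 reversed. Nearly all of these genes were picked for large differences called against both populations, in the same direction in every mouse. A reversal was therefore hardly possible, and the share kept does not measure how stable the other calls are. Over all genes tested, 88 of 223 calls higher than both and 36 of 114 lower remained without the block. Depth limits the genes with few UMIs, such as Kcnc2 (13) and Neto2 (24).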

Other observations

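Kcna6, a Kv1 channel gene picked after its values were seen, was too scarce for the CV of cells but had a long tail. It had a UMI in 219 of 1625 type IB cells (13.5%), and 18 cells with 5 or more UMIs held 36.1% of its 407 UMIs. These cells numbered 4, 4, 3 and 7 in mice 1 to 4. In type IC 17 of 2104 cells had 5 or more and held 28.4% of its UMIs, and in type IA 2 of 2384, so the tail was not particular to type IB.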
